A study of Drosophila melanogaster with 6 samples.

Results

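The genes described here encode enzymes of mitochondrial fatty acid oxidation, the spiral by which fatty acids are broken down to acetyl-CoA. The members are the 10 genes whd, CPT2, Mtpalpha, Mtpbeta, Mcad, Arc42, yip2, scu, Etfb and Etf-QO, measured by the probe sets that carry the symbol of that gene alone. Of these 10, 6 had such a probe set (whd, CPT2, Mtpbeta, Arc42, yip2 and scu), among 11982 genes of the array that did. Mtpalpha, Mcad, Etfb and Etf-QO were not analysed here. The 6 genes had 7 probe sets, because whd had 2, and a probe set shared between scu and another gene was left out.

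The study compared larvae of Drosophila melanogaster by the diet of their mothers. Virgin females of the strain w1118, which carries a mutation of the white gene, ate food with 1 M sucrose (maternal high sucrose, 3 arrays) or with 0.15 M sucrose (maternal control, 3 arrays) for 7 days and were mated to w1118 males on control food. All larvae came from embryos laid on control food, grew at 25 C and had 12 h on fresh control food before collection, and whole males of the third instar were hybridised to Affymetrix expression arrays. The labels disagree on whether the larvae were mid-stage or wandering, and they state no number of larvae per array. They also disagree on whether the larvae or their mothers ate the diets, as the titles call the larvae high sugar reared or control reared. The groups and the account above follow the treatment characteristic and the design text, which name the mothers. The titles call the arrays of a group biological replicates; nothing else says that they came from separate cultures, so the p-values measure the spread between these arrays only.

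In the fly as in mammals, long fatty acids enter the mitochondrion as carnitine esters, which one carnitine palmitoyltransferase makes at the outer membrane and a second one takes apart at the inner membrane. Each turn of the spiral then takes 4 kinds of enzyme, an acyl-CoA dehydrogenase, an enoyl-CoA hydratase, a hydroxyacyl-CoA dehydrogenase and a thiolase, and the electrons of the first of these pass through the electron transfer flavoprotein and its oxidoreductase to the respiratory chain. The fat body, oenocytes and muscle of the larva use the pathway when stored fat is drawn on.

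Markers of the tissues of a whole larva were present on all arrays. The fat body genes Lsp2 and Fbp2, the muscle genes Prm and Tm2, the midgut gene Jon99Fi and the oenocyte gene Cyp4g1 were each far above the upper quartile of every array, and the lowest value among them was 2517, for Cyp4g1 in high-sucrose array 3. Of the other oenocyte markers, FASN3 was above the upper quartile of every array and FASN2, at 44.06 to 65.65, of none. Array medians lay between 51.5 and 55.2 in maternal high sucrose and between 52.8 and 55.7 in maternal control arrays. Upper quartiles were 212.8 to 216.3 in maternal high sucrose arrays, all below the 218.2 to 224.2 of maternal control arrays, and all 6 members lay above the upper quartile of every array. Intensities of different probe sets cannot be compared with each other, so genes were not ranked by level. In RNA of a whole larva, fewer cells of a type and less RNA per cell cannot be told apart.

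No member passed the test between maternal diets. By limma on log2(intensity + 16), adjusted by Benjamini-Hochberg over all 18769 probe sets (threshold 0.05), 0 of the 6 genes were higher and 0 lower in maternal high sucrose than in maternal control larvae, where 0.0533% of all probe sets were called higher and 0.57% lower. At an unadjusted p under 0.05, 2 of the 6 were lower (yip2 and CPT2) and 0 higher, where 8.8% of all probe sets were lower. In the same 2 genes every maternal high sucrose array lay below every maternal control array, which 12.6% of all probe sets showed. The median log2 difference, maternal high sucrose minus maternal control, was -0.066 over the 6 genes and -0.034 over all probe sets, and 5 of the 6 genes lay below 0, against 58.9% of all probe sets. The shares and the median of all probe sets include probe sets dimmer than the members. Over the upper 50% of probe sets by mean the median was -0.044.

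**Figure D1:**
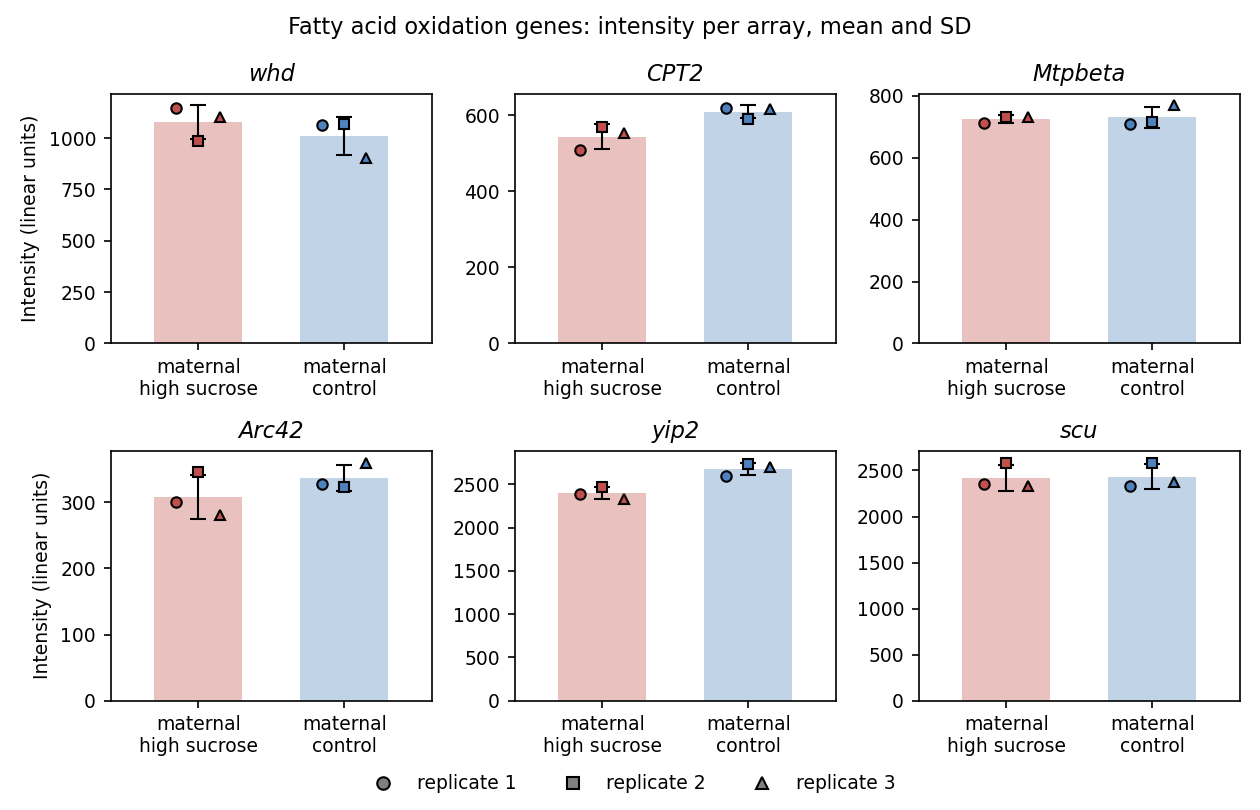
Intensity (linear units, from 0) of the 6 fatty acid oxidation genes in each array; points are arrays with a symbol per replicate number, bars are group means and error bars are SD (n = 3 each). CPT2 and yip2 are lower in all 3 maternal high sucrose arrays than in any maternal control array, and in the other 4 genes the groups overlap.

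The carnitine shuttle is represented by both of its transferases. The gene whd encodes carnitine palmitoyltransferase 1 of the outer membrane, the step at which entry of fatty acids is controlled. It had intensities of 1144, 987 and 1101 in maternal high sucrose arrays, against 1061, 1068 and 900.5 in maternal control arrays. The groups overlapped, with the lowest value of all in a control array. The mean was 1078 ± 81.3 in maternal high sucrose and 1010 ± 94.6 in maternal control arrays (SD, n = 3 each, as throughout), a log2 difference of 0.094 ± 0.081 (SE) with a 95% interval of -0.088 to 0.28 and an adjusted p of 0.68 by limma. Its interval thus reaches from 0.94-fold to 1.21-fold. The other probe set of whd was under 16 in all 6 arrays, at 1.00 to 1.95 in maternal high sucrose and 2.16 to 14.6 in maternal control arrays, and no direction was read from it.

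CPT2, the carnitine palmitoyltransferase of the inner membrane, had intensities of 508.3, 569.4 and 553.2 in maternal high sucrose arrays, against 619.8, 590 and 616.9 in maternal control arrays. All 3 maternal high sucrose arrays were lower, and the arrays numbered 2 lay nearest to each other. The mean was 543.7 ± 31.7 in maternal high sucrose and 608.9 ± 16.4 in maternal control arrays. The log2 difference was -0.16 ± 0.061 (95% interval -0.30 to -0.023; adjusted p = 0.322 by limma). Both transferases were also compared within each array, which removes any scale factor common to an array. The log2 ratio of whd over CPT2 was 1.15, 0.78 and 0.97 in maternal high sucrose arrays and 0.76, 0.84 and 0.53 in maternal control arrays. The groups overlapped in that ratio, since high-sucrose array 2 lay below control array 2.

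Of the acyl-CoA dehydrogenases among the members, which start each turn of the spiral, Arc42 was measured; it is annotated as the enzyme for short chains. Arc42 had intensities of 299.8, 344.9 and 280.2 in maternal high sucrose arrays, against 327.4, 322.5 and 359.6 in maternal control arrays. High-sucrose array 2 lay above 2 of the 3 control arrays, so the groups overlapped. The log2 difference was -0.12 ± 0.085 (95% interval -0.32 to 0.068; adjusted p = 0.594 by limma), and the spread among the maternal high sucrose arrays, 10.8% of their mean, was the widest of the 6 genes in that group.

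The gene scu encodes a hydroxyacyl-CoA dehydrogenase (17beta-HSD10) that is also a subunit of the mitochondrial ribonuclease P, which processes transfer RNAs. Its intensities were 2353, 2582 and 2326 in maternal high sucrose arrays, against 2334, 2584 and 2371 in maternal control arrays. The 2 sets of values span almost the same range. The log2 difference was -0.0056 ± 0.060, and its 95% interval of -0.14 to 0.13 corresponds to 0.906-fold to 1.09-fold (adjusted p = 0.98 by limma).

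Thiolases, which release acetyl-CoA at the end of each turn, are represented by Mtpbeta, the thiolase subunit of the trifunctional protein for long chains, and yip2, an acetyl-CoA acyltransferase of the mitochondrial matrix. Mtpbeta had intensities of 711.2, 731.8 and 732.5 in maternal high sucrose arrays, against 707.6, 714 and 768.4 in maternal control arrays. All 3 high-sucrose values lay inside the control range, with a log2 difference of -0.0086 ± 0.054 (95% interval -0.13 to 0.11; adjusted p = 0.966 by limma). For yip2 the intensities were 2390, 2471 and 2329 in maternal high sucrose arrays, against 2593, 2732 and 2703 in maternal control arrays. All maternal high sucrose arrays were lower, with means of 2397 ± 71.1 in maternal high sucrose and 2676 ± 73.6 in maternal control. The log2 difference of yip2 was -0.16 ± 0.047 (95% interval -0.26 to -0.051), with the smallest p among the 6 genes (unadjusted p = 0.00853 by limma), and did not pass over all probe sets (adjusted p = 0.213 by limma).

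Within each array, the log2 ratio of yip2 over Mtpbeta was 1.73, 1.73 and 1.65 in maternal high sucrose arrays and 1.85, 1.91 and 1.79 in maternal control arrays. The groups did not overlap in that ratio, with means of 1.70 ± 0.048 in maternal high sucrose and 1.85 ± 0.060 in maternal control. Under quantile scaling the ratio was 1.77, 1.74 and 1.69 in maternal high sucrose against 1.82, 1.88 and 1.76 in maternal control arrays, and high-sucrose array 1 then lay above control array 3. Both ratios were chosen by the enzymes' shared activity, with the values known, and carry no test.

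The size of these differences depended on how the arrays were scaled. Under quantile scaling the log2 difference of yip2 was -0.040, that of CPT2 -0.10, that of Arc42 -0.086 and that of whd 0.17. Under cyclic loess they were -0.083 for yip2, -0.11 for CPT2, -0.083 for Arc42 and 0.15 for whd. Mtpbeta and scu lay above 0 in each of the 3 other scalings, which add median centring to those 2 (0.018 to 0.052 for Mtpbeta and 0.021 to 0.11 for scu), so that 3 of the 6 genes were below 0 there, against 5 of 6 without further scaling. The sign of CPT2, Arc42 and yip2 was below 0 in all 4 scalings, and none of the 6 genes passed in any of them.

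**Figure D2:**
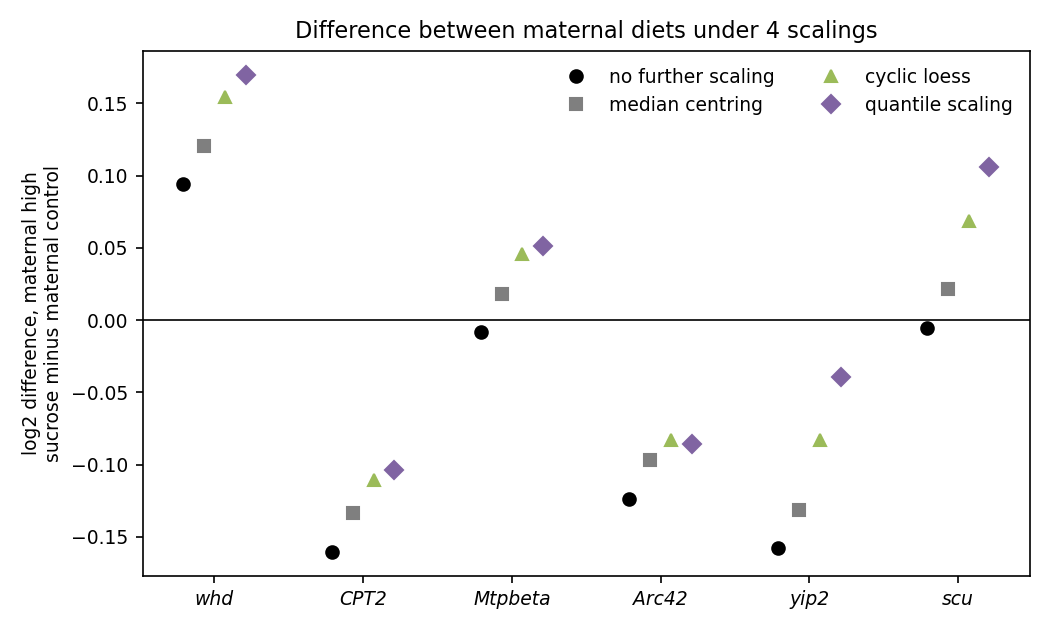
Log2 difference (maternal high sucrose minus maternal control) of the 6 genes under 4 scalings of the arrays. CPT2, Arc42 and yip2 lie below 0 in all 4, whd lies above 0 in all 4 (0.094 to 0.17), and Mtpbeta and scu lie just below 0 without further scaling and above it in the other 3.

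The members also varied among arrays of the same diet. High-sucrose array 2 had the lowest whd value of its group (987) and the highest CPT2, Arc42, yip2 and scu values. Control array 3 had the lowest whd value of its group (900.5) and the highest Mtpbeta and Arc42 values. Both of these arrays at once were the highest of their groups for 3197 of the 18769 probe sets (17%), and the lowest for 2143 (11.4%). Both were the highest for 1 of the 6 members (Arc42) and the lowest for 1 (whd). Among the other mitochondrial enzymes both were the highest for 9 of 12 genes, and the lowest for 0; among the peroxisomal genes they were the highest for 5 of 7 and the lowest for 0. Of the 7 genes of malonyl-CoA and fatty acid synthesis they were the highest for 3, ACC, FASN1 and AcCoAS, and the lowest for 0. The acyl-CoA synthetase and transport genes were mixed (highest for 2 of 8, lowest for 2), as were those of lipid mobilisation (2 of 7 and 2). Both arrays were the highest for 6 of 12 regulators, 2 of 2 ketone body genes and 2 of 2 dehydrogenase genes of amino acid breakdown, and the lowest for 0. ACC, acetyl-CoA carboxylase, which makes the malonyl-CoA that in mammals inhibits carnitine palmitoyltransferase 1, was at 566.5, 915.8 and 571.7 in maternal high sucrose and 606.6, 764 and 934.5 in maternal control arrays. FASN1, fatty acid synthase, was at 5740, 7166 and 5771 in maternal high sucrose and 6057, 6303 and 7408 in maternal control arrays. The 2 arrays and these genes were singled out after their values were seen, and the pattern rests on 1 array of each group. High-sucrose array 2 and control array 3 also had the highest upper quartiles of their groups (216.3 and 224.2). The shares of all probe sets include dim ones, and the counts were not repeated under another scaling. The part of array scale in these counts was not tested. Neither ACC nor FASN1 passed between the diets (adjusted p = 0.757 for ACC and 0.781 for FASN1, by limma).

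**Figure D3:**
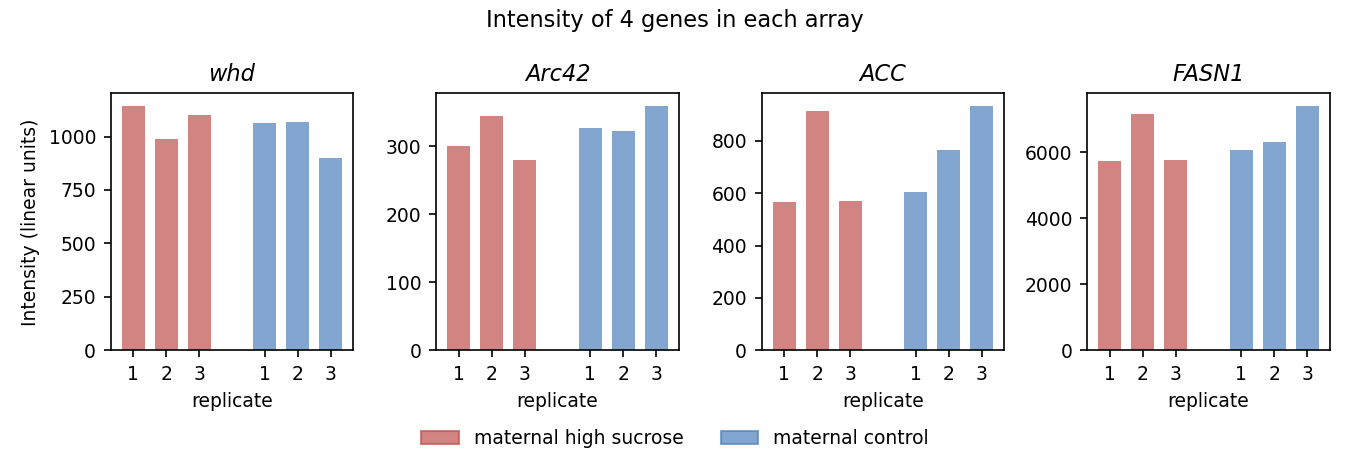
Intensity (linear units, from 0) of whd, Arc42, ACC and FASN1 in each array, with the replicate number below each bar. In high-sucrose array 2 and control array 3, whd is at its group's lowest value (987 and 900.5) and Arc42, ACC and FASN1 are at their groups' highest.

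Of 13 other listed genes of the mitochondrial pathway, 12 were measured. By limma, 0 of the 12 passed in either direction, and 5 were lower and 0 higher at an unadjusted p under 0.05, where 8.8% of all probe sets were lower. Their median log2 difference was -0.11 and 11 of the 12 lay below 0, where 58.9% of all probe sets did. The count below 0 was 9 under median centring, 8 under cyclic loess and 6 under quantile scaling, and the median under the last was -0.012. Acadvl, the acyl-CoA dehydrogenase for very long chains, was at 811.4, 879.3 and 810.8 in maternal high sucrose arrays, against 949.8, 980.7 and 1056 in maternal control arrays. These groups did not overlap, and the log2 difference of -0.25 ± 0.060 had an adjusted p of 0.126 by limma.

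CG4598 was at 787.6, 864 and 889.9 in maternal high sucrose arrays, against 969.9, 945.1 and 1045 in maternal control arrays (log2 difference -0.22 ± 0.064; adjusted p = 0.206 by limma). Dci, an isomerase for unsaturated fatty acids, was at 1682, 1713 and 1691 in maternal high sucrose arrays, against 1891, 1859 and 1804 in maternal control arrays (-0.13 ± 0.045; adjusted p = 0.292 by limma). Neither gene's groups overlapped, as was so, on the lower side, for 4 of the 12 genes in all and for 12.6% of all probe sets. Had1, a hydroxyacyl-CoA dehydrogenase gene, was at 2853, 3447 and 2932 in maternal high sucrose arrays, against 3465, 3416 and 3589 in maternal control arrays, and high-sucrose array 2 stood with the controls. Its adjusted p was 0.326 with all arrays. Without high-sucrose array 2, 1 of the 12 genes passed as lower, Had1 (adjusted p = 0.0476 by limma). Leaving out that array took away the high-sucrose value of Had1 that stood with the controls. Over all probe sets, 154 passed as lower without it, against 107 with all arrays. With any other array left out, and under the other scalings, 0 of the 12 genes passed. The carrier gene colt, whose product exchanges carnitine and its esters across the inner membrane, lay at 614.7 ± 45.2 in maternal high sucrose and 598.2 ± 49.5 in maternal control arrays, and wal, the alpha subunit of the electron transfer flavoprotein, had a log2 difference of -0.10 ± 0.062.

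**Figure D4:**
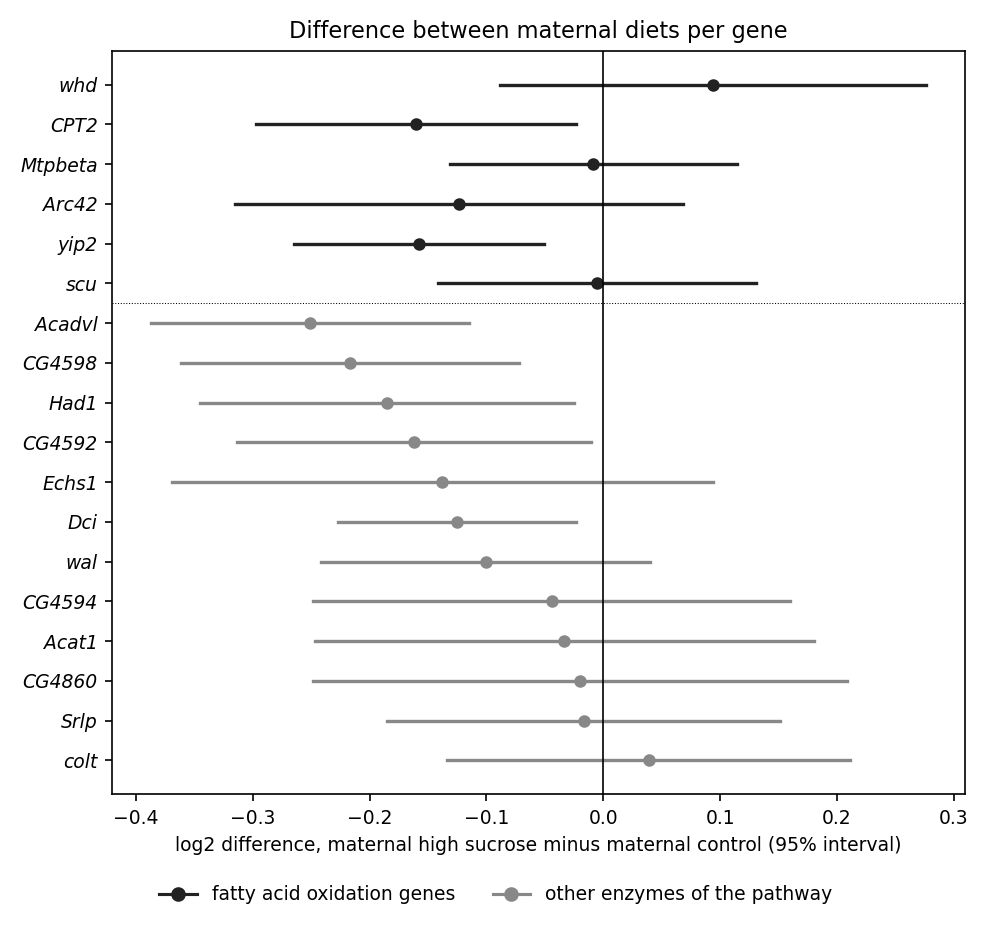
Log2 difference (maternal high sucrose minus maternal control, without further scaling) with its 95% interval for the 6 fatty acid oxidation genes (black) and the 12 other measured enzymes of the mitochondrial pathway (grey, sorted). Intervals of CPT2, yip2, Acadvl, CG4598, Had1, CG4592 and Dci lie below 0 before adjustment; none of the 18 genes passed over all probe sets.

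Genes that feed, bypass or control the pathway did not pass either. Of 8 acyl-CoA synthetase, fatty acid transport and binding protein genes, which activate or carry fatty acids, 0 passed and 0 were past an unadjusted p of 0.05 by limma, with a median log2 difference of -0.030 that was 0.029 under quantile scaling. The synthetase gene bgm was at 1350 ± 234.9 in maternal high sucrose and 1560 ± 284.5 in maternal control arrays. CG3961 had a log2 difference of 0.082 ± 0.057 and Fatp3 one of -0.069 ± 0.072. Of 7 peroxisomal genes, which shorten very long fatty acids outside the mitochondrion, 0 passed and the median was -0.13 (-0.020 under quantile scaling). Unadjusted, 1 of the 7 was lower, where 8.8% of all probe sets were. That gene, the acyl-CoA oxidase Acox3, was at 1017, 1185 and 1044 in maternal high sucrose arrays, against 1240, 1276 and 1346 in maternal control arrays. The groups did not overlap (log2 difference -0.25 ± 0.067; adjusted p = 0.17 by limma). Acox57D-d, a second oxidase, had a log2 difference of -0.32 ± 0.15, and Mfe2, the peroxisomal multifunctional enzyme, one of -0.13 ± 0.075.

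Of 7 genes of lipid mobilisation 0 passed, with a median of -0.049 (0.018 under quantile scaling). Unadjusted, 1 was higher, Akh, the hormone that calls on stored fat, where 673 of all 18769 probe sets were higher. Akh was at 60.8, 63.6 and 55.6 in maternal high sucrose arrays, against 38, 39 and 44 in maternal control arrays (log2 difference 0.43 ± 0.11; adjusted p = 0.151 by limma). The lipid droplet gene Lsd-2 (-0.056 ± 0.058) and the lipase gene CG5966 (-0.098 ± 0.11) had the next smallest p. Of 12 regulators 0 passed and the median was -0.084 (-0.033 under quantile scaling). Unadjusted, 1 of the 12 was lower, where 8.8% of all probe sets were. Hr96, a nuclear receptor of lipid metabolism, was at 492.7, 688.2 and 593.6 in maternal high sucrose arrays, against 678.5, 792.7 and 757.9 in maternal control arrays, with 1 high-sucrose array inside the control range (-0.33 ± 0.11; adjusted p = 0.26 by limma). The sugar-induced factor gene sug had a log2 difference of -0.24 ± 0.11 and alc, a subunit of AMP-activated kinase, one of -0.16 ± 0.12 at intensities of 11.6 to 18.7. Hnf4, the receptor that activates fatty acid oxidation genes on starvation in flies, was at 465.7 ± 26.2 in maternal high sucrose and 494.4 ± 21.9 in maternal control arrays (adjusted p = 0.635 by limma).

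Of 7 genes of malonyl-CoA and fatty acid synthesis 0 passed and 0 were past an unadjusted p of 0.05 by limma, with a median of -0.12 (0.0024 under quantile scaling). ATPCL was near background, at 2.63 to 20.3 in maternal high sucrose and 10.7 to 23.0 in maternal control arrays, and FASN2 (-0.17 ± 0.13) and AcCoAS (-0.12 ± 0.098) had the next smallest p. Of the 2 ketone body genes measured, SCOT lay at -0.15 ± 0.13 and Hmgs at -0.052 ± 0.083 on the log2 scale. CG9547 and CG6638, acyl-CoA dehydrogenase genes listed for amino acid breakdown, had log2 differences of -0.22 ± 0.068 and -0.063 ± 0.093, with 0 passing (adjusted p = 0.238 and 0.51 by limma).

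Marker lists of tissues were set beside the members. They were chosen with earlier results of these data known, so their counts are no test of a tissue. Of all probe sets, 0.57% were called lower and 0.0533% higher. Of 12 midgut markers, 7 passed as lower (median log2 difference -0.49), with a summed intensity of 43140 to 45508 in maternal high sucrose and 53980 to 55306 in maternal control arrays. The count of midgut markers was 6 in each of the 3 other scalings and 1 without control array 2. Of 5 fat body markers 0 passed, with sums of 37703 to 38703 in maternal high sucrose and 39935 to 42173 in maternal control arrays, and the median of the list was -0.10 (-0.019 under quantile scaling). Of 8 muscle markers 0 passed, with sums of 35729 to 39199 in maternal high sucrose and 36229 to 39146 in maternal control arrays. Of 3 oenocyte markers 0 passed, with sums of 3698 to 3753 in maternal high sucrose and 3850 to 4098 in maternal control arrays. Of 12 testis markers 1 passed as higher (Mst98Ca, which did not pass when any 1 array was left out), against 2 in each of the 3 other scalings, with sums of 4709 to 4887 in maternal high sucrose and 3795 to 4383 in maternal control arrays. Without further scaling, the fat body, midgut and oenocyte sums were lower in every maternal high sucrose array than in any maternal control array. The testis sum was higher in every maternal high sucrose array than in any maternal control array, and the muscle sums overlapped. Among single probe sets, 12.6% of all were lower in that way, and 1118 of 18769 were higher. The sums follow the brightest genes of a list, and Cyp4g1, at 2517 to 2939, made up most of the oenocyte sum. The oenocyte median was -0.13, and -0.022 under quantile scaling, where 2 of its 3 markers and 3 of the 5 fat body markers lay below 0. The part of these tissues in the members' values was not tested.

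The genes most like the mean of the 6 members over the 6 arrays were sought among 8288 probe sets of 1 gene in the brighter part of the array, by Pearson's r with the mean of the members' centred log2 values. That mean does not stand for each member. The log2 values of whd correlated negatively with those of every other member (r from -0.87 with Arc42 to -0.20 with scu). The 5 genes found were sp3 (r = 0.992), Alp9 (0.991), not (0.991), CG7407 (0.988) and CG8907 (0.988), given as a description with 6 arrays that share the difference between the diets. Of these 5 genes 0 passed between the diets, with log2 differences of -0.11 to -0.48.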

How the data were processed

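The authors deposited a table of linear intensities (18952 probe sets, 6 Affymetrix arrays), hybridised with biotinylated cRNA from 2 ug of total RNA per the labels' protocols. How they were summarised, background-corrected and scaled is not stated there. Each array has 1 column, and groups follow the maternal diet in the characteristics. Control probe sets (183) were left out of the tests. Of the 18769 others, 13647 carry 1 gene symbol in the platform's probe table, 402 several and 4720 none. Symbols were matched to a RefSeq table (Release 6 plus ISO1 MT), which updated 0 and left 103 probe sets' gene IDs unmatched. No sequence of a member was used here.

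Differences were fitted on log2(intensity + 16) over all tested probe sets in R 4.3.3 with limma 3.58.1 (lmFit, then eBayes with an intensity trend; 4 residual and 5.16 prior degrees of freedom), with Benjamini-Hochberg adjustment. The scale understates changes of dim genes. Where a gene had more than 1 probe set, the one with the highest mean stood for it. The methods were tested on simulated data. The number of arrays limits the precision.

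Members and lists were chosen with earlier results of these data known. Genes named are all members, from each pathway list the 3 of smallest p at most and any that passed, and the 5 genes closest to the members' mean. Had1, CG4592, colt, wal, Hnf4, ACC and FASN1 were added after their values were seen. Tissue markers named singly were picked from the marker lists outside these rules.

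The titles number the arrays 1 to 3 in both groups. Deviations of same-numbered arrays from their group means correlated at -0.072, 0.025 and -0.014, so the numbers were not taken as pairs. Alternatives were 3 other scalings, pseudocounts of 1 and 64, a filter to the upper 50% of probe sets by mean, other variance models, array weights, a threshold of 0.10, a replicate block, all probe sets of a gene averaged, and each array left out in turn.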

Additional observations from a re-analysis of the deposited data

How the results depend on the processing

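None of the 6 fatty acid oxidation genes passed in any alternative tried, with adjusted p from 0.129 upward. CPT2, Arc42 and yip2 lay below 0 in all 17 alternatives, from -0.19 to -0.10 for CPT2, -0.20 to -0.061 for Arc42 and -0.18 to -0.040 for yip2. Some of these could not change a log2 difference: the replicate block, the filter, the other variance models and, for genes of 1 probe set, the averaging. Pseudocounts, array weights and left-out arrays could not turn the sign of CPT2 and yip2 either, as their groups do not overlap. For CPT2 and yip2 only the scalings could, so the other alternatives are no test of their sign. For Arc42, whose groups overlap, the pseudocounts, array weights and left-out arrays could turn it as well. The sign of whd turned when its 2 probe sets were averaged (-0.14), the second being under 16 in every array, and with 1 array left out whd ranged from 0.015 (without control array 3) to 0.15 (without high-sucrose array 2). The sign of Mtpbeta turned under the scalings by quantiles, by medians and by cyclic loess (0.052, 0.018 and 0.046) and ranged from -0.030 to 0.028 with 1 array left out; that of scu turned under the same scalings (0.11, 0.021 and 0.069) and ranged from -0.053 to 0.039. The median of the 6 genes was -0.066; it was 0.0060 under quantile scaling, -0.019 under cyclic loess, -0.13 with probe sets averaged, and -0.12 (without high-sucrose array 2) to -0.038 with 1 array left out. The cause was not tested.

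Over all probe sets 117 passed. The number was 63 with the replicate block, which changed no call of a member, 4 without the intensity trend, 195 with robust variances, 264 at an adjusted p of 0.10, and 13 (without control array 2) to 163 with 1 array left out, among them 31 without control array 3, 42 without high-sucrose array 1 and 35 without high-sucrose array 3. Groups of 3 arrays were not searched for outlying arrays.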
